A study of Rattus norvegicus with 12 samples.

Results

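The genes described here are 8 rat genes of brown fat and other oxidative fat tissue, Ucp1, Cox8b, Cidea, Cpt1b, Car3, Cox7a1, Elovl3 and Ucp3, as measured in kidney. All 10 probe sets that the array annotation gives to these symbols were taken, out of 31042 probe sets and 14217 genes with 1 symbol. The genes were chosen by their signals on these same arrays, which had been seen to vary with body type and drug, so their differences between groups are given as a description, with no test. The kidneys came from 12 male Zucker rats, with 1 Affymetrix Rat 230 2.0 array per rat and 3 rats in each of 4 groups. The groups were obese rats fed ground chow to which rosiglitazone was added (3 mg per kg of body weight), obese rats fed the chow alone (control diet), lean rats fed chow with the same dose of rosiglitazone, and lean rats fed the chow alone, all for 12 weeks. Obese Zucker rats lack a working leptin receptor, a defect that the lean rats do not share, and the labels name the animals as a diabetes model. Rosiglitazone activates PPARgamma, the nuclear receptor that drives fat cell differentiation, and the subject of the series is what the drug does to kidney expression. The labels give neither the age of the rats nor how the fat around the kidney was handled at dissection.

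Brown fat burns fatty acids to make heat. Its mitochondria carry UCP1, which lets protons back across the inner membrane without making ATP, and its cells pair this with a large capacity for taking up, storing and oxidising fatty acids. In rodents brown fat lies in several depots, one of them around the kidney, and cold, adrenergic signals and PPARgamma agonists are known to raise Ucp1 in fat cells. Brown fat of rats with a defective leptin receptor is known for low thermogenic activity. The 8 genes cover uncoupling proteins (Ucp1, Ucp3), subunits of cytochrome c oxidase found in oxidative tissues (Cox8b, Cox7a1), proteins of fatty acid storage, entry into mitochondria and elongation (Cidea, Cpt1b, Elovl3), and a cytosolic carbonic anhydrase of fat and muscle (Car3).

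Promoters from RefSeq (build GRCr8, 250 bases before to 50 after the annotated start) were matched for 6 of the 8 genes, and Cpt1b and Car3 were not matched. The 3 genes that moved together most closely, Ucp1, Cox8b and Cidea, are shown with Ucp3, whose sequence holds the only match of the 6 to the nuclear receptor half-site searched for. Each sequence runs 5′ to 3′ on the strand of its gene, and capitals mark the motif matches.
Ucp1: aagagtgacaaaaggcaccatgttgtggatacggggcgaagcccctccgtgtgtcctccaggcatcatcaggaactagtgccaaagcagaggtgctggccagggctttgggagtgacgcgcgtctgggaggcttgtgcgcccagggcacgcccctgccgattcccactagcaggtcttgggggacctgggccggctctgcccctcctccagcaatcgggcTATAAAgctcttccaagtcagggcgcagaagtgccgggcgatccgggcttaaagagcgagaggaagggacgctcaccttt
Cox8b: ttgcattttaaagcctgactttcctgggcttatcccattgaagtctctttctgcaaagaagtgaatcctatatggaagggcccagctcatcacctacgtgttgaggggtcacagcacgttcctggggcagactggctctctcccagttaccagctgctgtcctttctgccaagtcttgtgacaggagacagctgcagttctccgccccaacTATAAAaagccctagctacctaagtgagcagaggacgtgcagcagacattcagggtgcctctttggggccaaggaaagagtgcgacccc
Cidea: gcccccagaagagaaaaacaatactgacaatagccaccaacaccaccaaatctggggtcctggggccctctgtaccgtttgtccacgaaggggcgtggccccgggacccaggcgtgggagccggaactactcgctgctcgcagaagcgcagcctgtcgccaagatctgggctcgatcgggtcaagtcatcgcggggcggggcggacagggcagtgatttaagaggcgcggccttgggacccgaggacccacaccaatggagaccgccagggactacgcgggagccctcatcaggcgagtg
Ucp3: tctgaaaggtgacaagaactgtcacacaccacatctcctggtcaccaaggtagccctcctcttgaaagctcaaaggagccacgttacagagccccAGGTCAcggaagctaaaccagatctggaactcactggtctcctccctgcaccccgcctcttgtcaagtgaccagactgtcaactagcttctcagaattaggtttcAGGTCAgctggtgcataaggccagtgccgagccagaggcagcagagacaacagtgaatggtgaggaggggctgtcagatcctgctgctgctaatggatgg
The windows lie at chr19:41721372-41721671 on the minus strand for Ucp1, chr1:205408224-205408523 on the minus strand for Cox8b, chr18:63164567-63164866 on the plus strand for Cidea and chr1:164227660-164227959 on the plus strand for Ucp3.

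TATAAA, the core letters of the TATA box, was found 30 bases before the start of Ucp1 and 39 bases before that of Cox8b, and on neither strand of the other 4 promoters. Of 33469 rat promoters of the same length, 14.2% hold these letters on either strand. AGGTCA, the half-site of many nuclear receptors, was found in Ucp3 alone, 155 and 50 bases before the start, and 16.2% of all promoters hold it. Repeats of it spaced by 1 base (AGGTCANAGGTCA), the arrangement that PPAR and RXR dimers bind, were in 0.0538% of all promoters and in 0 of the 6. The cyclic AMP response element TGACGTCA was in 1.83% of all promoters and in 0 of the 6. The TGACGTCA letters hold no AGGTCA, whereas each spaced repeat is also counted under AGGTCA. G and C made up 62.0% of the bases in Ucp1, 52.7% in Cox8b, 64% in Cidea and 54.0% in Ucp3, against a median of 51.7% over all promoters. The matches describe these windows only, and the well-known Ucp1 enhancer of rodents lies further upstream.

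The deposited values are MAS5 signals on a linear scale, scaled by the authors to a common trimmed mean, and signals of different probe sets cannot be set against each other. As a measure of the level without transcript, the 15 bacterial control probe sets read 1.04 to 115.7 over the arrays, with a median of 8.94, and the highest of them on 1 array ranged from 22.8 to 115.7. Cre spike-in signals, a control of hybridisation, fell into a higher class of 5 arrays (19916 to 21951) and a lower class of 7 arrays (14412 to 16658). The lower class held all 3 obese rosiglitazone arrays, 2 obese control arrays, 1 lean rosiglitazone array and 1 lean control array. It thus moved with body type (5 of 6 obese and 2 of 6 lean arrays) and, in obese rats, with diet, whereas the lean groups had 1 array each. Differences below are of mean log2(signal + 16), with the standard error (SE) of a limma fit over all 12 arrays. The offset of 16 makes differences of dim probe sets smaller than they are on the plain scale. Groups did not overlap where all arrays of the first lay above, or all lay below, those of the second.

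**Figure D1:**
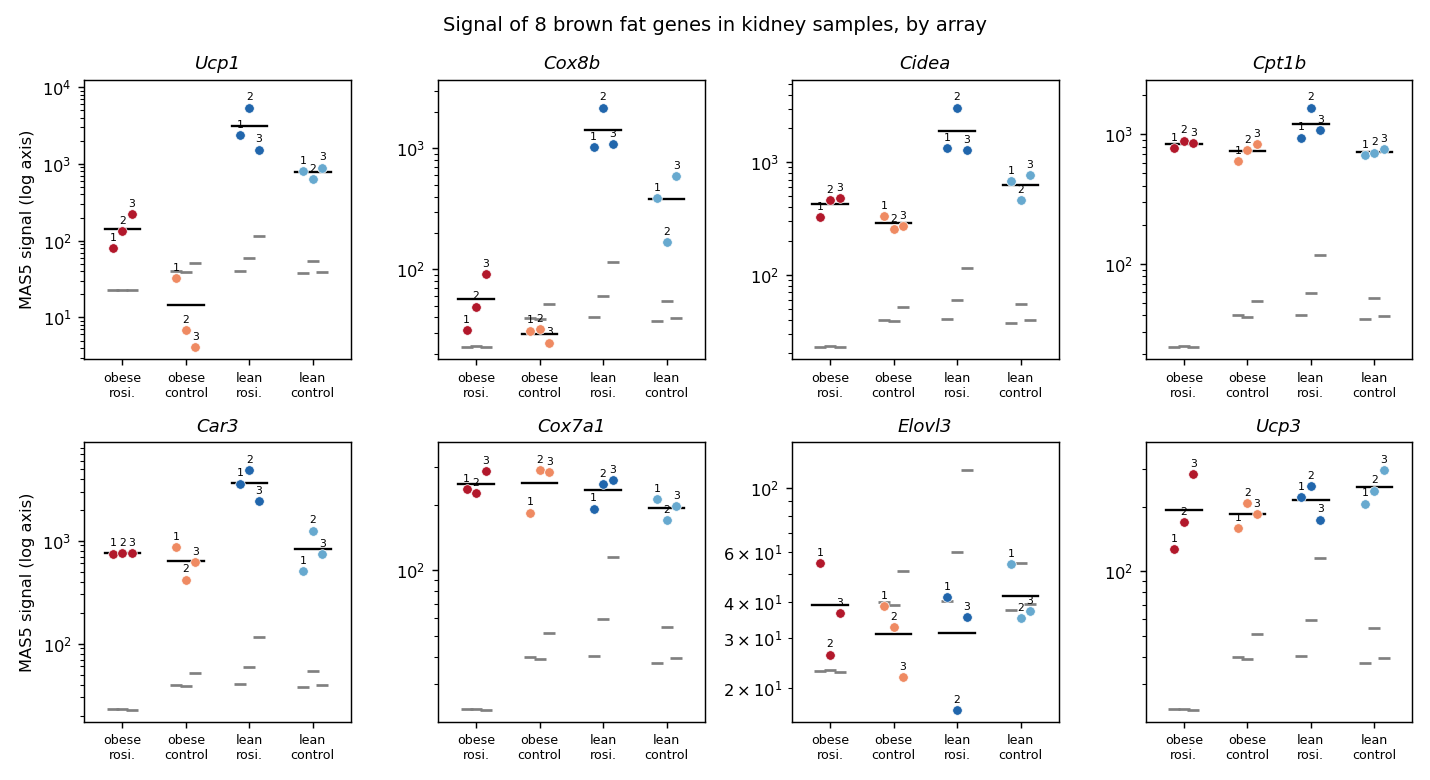
Signal of the brightest probe set of each of the 8 genes on each array, on a log axis. Numbered points are arrays 1 to 3 of each group, black lines are group means, and grey ticks are the highest bacterial control on the same array. Ucp1 and Cox8b lie under the grey ticks on all 3 obese control arrays, and Ucp1, Cox8b and Cidea are highest in lean rats on rosiglitazone.

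Ucp1 (probe set 1387033_at) was far lower in obese than in lean kidneys on either diet and higher on rosiglitazone in either body type, and no pair of groups overlapped in these 4 comparisons. Its signal was 79.1, 132 and 220 (mean 144 ± 71.0, SD, n = 3) in obese rats on rosiglitazone and 32.8, 6.87 and 4.11 (14.6 ± 15.8) in obese rats on control diet. In lean rats it was 2357, 5435 and 1535 (3109 ± 2056) on rosiglitazone and 803, 632 and 894 (776 ± 133) on control diet. All 3 obese control arrays lay under the highest bacterial control of their own array, and the obese rosiglitazone arrays lay above it. Among lean rats on the drug, array 2 stood well above the other two.

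On the log2 scale Ucp1 differed by −4.80 (SE 0.44) between obese and lean rats on control diet and by −4.19 on rosiglitazone. Since the obese control arrays give only an upper bound, Ucp1 was at least 17.8-fold lower there than in lean control rats, taking the highest bacterial control of each array as the floor. Rosiglitazone against control gave 1.79 in lean rats and 2.40 in obese rats, where the bound is at least 3.06-fold higher. The difference between these drug effects, obese minus lean, was 0.61 (SE 0.62), and it was 1.78 with an offset of 1 and −0.37 with an offset of 64, so its sign is not settled. Within the lower spike-in class the body type difference of Ucp1 was −5.41 on control diet and −3.38 on rosiglitazone, and within the higher class −3.90 on control diet. The drug effect of Ucp1 in lean rats was 0.77 within the lower class, where each group had 1 array, and 2.30 within the higher class.

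Ucp3 (1387681_at), the uncoupling protein of muscle and brown fat mitochondria, had signals of 127, 170 and 282 in obese rats on rosiglitazone and 159, 208 and 185 in obese rats on control diet. In lean rats Ucp3 read 222, 249 and 174 on rosiglitazone and 207, 237 and 295 on control diet. The groups overlapped in every comparison, and all 4 log2 differences lay between −0.39 and 0.00 (SE 0.25). A dimmer second probe set of Ucp3 (1382958_at), below the filter on dim probe sets, read 59.4, 49.6 and 238 in obese rats on rosiglitazone and 58.1, 110 and 67.5 in obese rats on control diet. In lean rats it read 222, 198 and 211 on rosiglitazone and 130, 141 and 83.2 on control diet, so it was non-overlapping between diets in lean rats where the brighter probe set was not. Both probe sets had obese rosiglitazone array 3 as the highest of its group, and their deviations from the group means correlated at r = 0.63 over the 12 arrays.

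Cox8b (1367739_at), the muscle and brown fat form of cytochrome c oxidase subunit 8, followed Ucp1 between body types. Its signal was 31.6, 49.3 and 90.8 (57.2 ± 30.4) in obese rats on rosiglitazone and 31.2, 32.0 and 24.7 (29.3 ± 3.98) in obese rats on control diet. In lean rats Cox8b read 1028, 2179 and 1080 (1429 ± 650) on rosiglitazone and 387, 169 and 593 (383 ± 212) on control diet. Every lean array lay above every obese one, and the obese control arrays were again all under the highest bacterial control of their array.

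The log2 difference of Cox8b between obese and lean rats was −2.98 (SE 0.41) on control diet, at least 7.84-fold lower by the same bound, and −4.30 on rosiglitazone. Rosiglitazone against control gave 1.93 in lean rats, with no overlap, and 0.62 in obese rats, where array 1 on the drug lay among the controls. The same bound, taken between group means on the log2 scale, is 1.21-fold higher on the drug in obese rats. However, drug array 1 (31.6) lay below the highest bacterial control of each obese control array (39.1 to 51.5). A rise of Cox8b on the drug in obese rats is thus not settled. The fitted difference between the drug effects, obese minus lean, was −1.32 (SE 0.58), and −0.20 within the lower spike-in class with 1 array in each lean group. As for Ucp1, this difference rests on signals at the level of the bacterial controls, so neither its size nor its sign is settled.

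Cox7a1 (1374698_at), the heart and muscle form of subunit 7a, did not follow. It read 236, 227 and 285 in obese rats on rosiglitazone, 184, 289 and 284 in obese rats on control diet, 192, 250 and 260 in lean rats on rosiglitazone, and 212, 170 and 197 in lean rats on control diet. The groups overlapped in all 4 comparisons. The Cox7a1 differences ranged from 0.00 for rosiglitazone against control in obese rats to 0.34 for obese against lean on control diet (SE 0.20).

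Cidea (1389179_at), a lipid droplet protein that in rodents marks brown fat, had the same order of groups as Ucp1 with smaller differences. Its signal was 328, 464 and 480 (424 ± 83.8) in obese rats on rosiglitazone and 332, 256 and 272 (287 ± 39.8) in obese rats on control diet. In lean rats Cidea read 1345, 3070 and 1291 (1902 ± 1012) on rosiglitazone and 680, 460 and 764 (635 ± 157) on control diet. Obese and lean rats did not overlap on either diet, and in obese rats the diets overlapped through a single pair of arrays, both with the number 1. Unlike Ucp1 and Cox8b, Cidea was above the bacterial controls on all 12 arrays.

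The body type difference of Cidea was −1.08 (SE 0.29) on control diet and −2.02 on rosiglitazone, and the drug effect was 1.47 in lean and 0.53 in obese rats (difference −0.94, SE 0.40). Within the lower spike-in class the drug effect on Cidea was 0.63 in obese and 0.74 in lean rats, and their difference was −0.11.

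Cpt1b (1367742_at), the muscle form of carnitine palmitoyltransferase, which admits long-chain fatty acids to mitochondria, differed little except in lean rats on the drug. It read 783, 888 and 846 (839 ± 52.5) in obese rats on rosiglitazone and 614, 749 and 841 (735 ± 114) in obese rats on control diet. In lean rats Cpt1b read 937, 1600 and 1068 (1202 ± 351) on rosiglitazone and 689, 720 and 760 (723 ± 35.9) on control diet. The lean rosiglitazone arrays lay above all arrays of the other groups, with array 2 the highest. Its log2 difference was 0.01 (SE 0.17) between body types on control diet and −0.47 on rosiglitazone, and the drug gave 0.68 in lean and 0.20 in obese rats.

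Elovl3 (1385286_at), a fatty acid elongase that in mice rises in cold-exposed brown fat, was near the level of the controls. Its single probe set read 16.8 to 54.6 over the 12 arrays, lay under the highest bacterial control of its array on 7 of them, and was dropped by the filter on dim probe sets. The groups overlapped in all 4 comparisons, and no fold is given.

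Car3 (1367896_at), carbonic anhydrase 3, an abundant cytosolic enzyme of fat and muscle, differed in a way unlike Ucp1: the groups on control diet overlapped, and lean rats on the drug stood alone. It read 749, 760 and 757 (755 ± 5.71) in obese rats on rosiglitazone and 871, 418 and 624 (638 ± 227) in obese rats on control diet. In lean rats Car3 read 3587, 4834 and 2433 (3618 ± 1200.4) on rosiglitazone and 502, 1254 and 742 (833 ± 384) on control diet. Every lean rosiglitazone array lay above every other array.

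The log2 difference of Car3 between body types was −0.34 (SE 0.31) on control diet and −2.18 on rosiglitazone, and the drug gave 2.14 in lean and 0.30 in obese rats (difference −1.84, SE 0.44). A second probe set of Car3 (1386977_at) gave −0.04, −2.03, 1.80 and −0.19 in the same order, with a difference between drug effects of −1.98. Within the lower spike-in class the drug effect of Car3 was 0.55 in obese and 1.69 in lean rats.

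**Figure D2:**
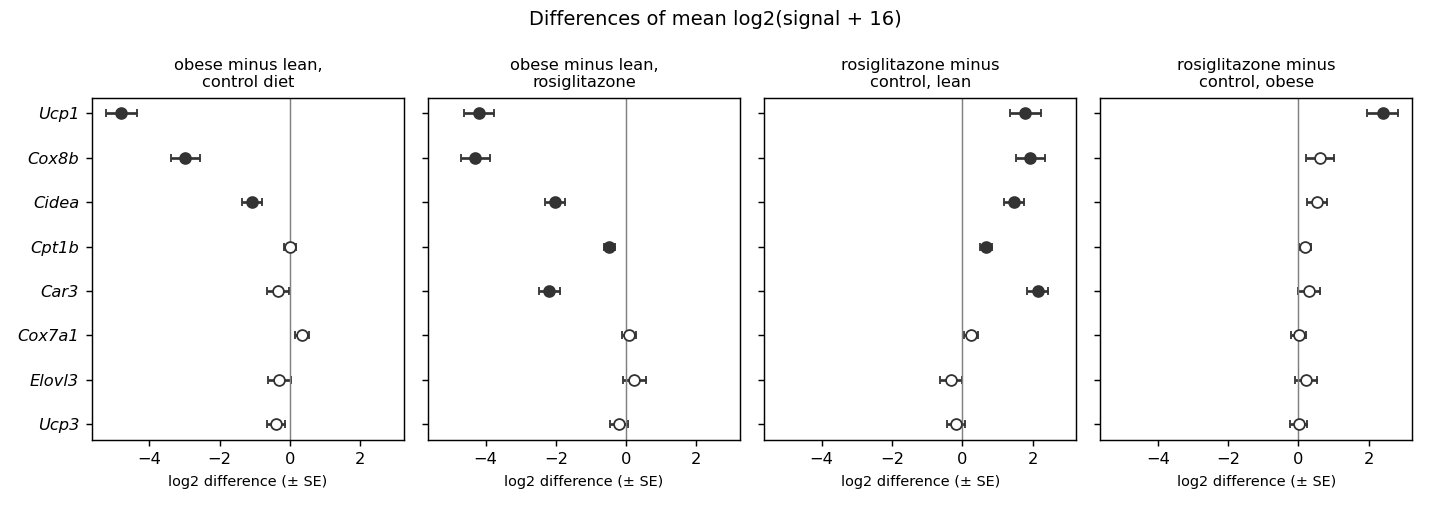
Differences of mean log2(signal + 16) for the 8 genes in the 4 comparisons, with bars of 1 SE and n = 3 rats a group. Filled points are genes whose groups do not overlap: 3 on control diet and 5 on rosiglitazone between body types, 5 for the drug in lean rats and 1, Ucp1, in obese rats.

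Side by side, 3 of the 8 genes (Ucp1, Cox8b and Cidea) were non-overlapping and lower in obese than in lean rats on control diet, where 11.2% of the 18625 probe sets kept by the filter were non-overlapping and lower. On rosiglitazone Cpt1b and Car3 joined them, making 5 of 8, against 10.4% of kept probe sets. The same 5 genes were non-overlapping and higher on rosiglitazone in lean rats, against 4.10% of kept probe sets. In obese rats 1 of 8, Ucp1, was higher without overlap, against 5.56%. The choice of the genes used these contrasts, so nothing is read from these counts. The median log2 difference of the 8 genes was −0.36 on control diet and −1.25 on rosiglitazone for obese against lean, and 1.08 in lean and 0.26 in obese rats for the drug, against medians over all kept probe sets of 0.03, 0.02, 0.00 and −0.00. These comparisons share arrays, so the pairs of values are not independent.

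Deviations from the group means were not used in choosing the genes, and they show how the genes varied among rats of 1 group. By the brightest probe sets, lean rosiglitazone array 2 was the highest of its group for 6 of the 8 genes, all but Cox7a1 and Elovl3. In the dimmer probe sets of Car3 (582, against 817 and 711) and Ucp3 (198, against 222 and 211) it was the lowest. Obese rosiglitazone array 3 was the highest of its group for 5 genes, obese rosiglitazone array 1 the lowest for 6, and lean control array 3 the highest for 5. On lean rosiglitazone array 2, Ucp1 lay 1.00 above its group mean on the log2 scale, Cidea 0.81 and Cox8b 0.69.

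**Figure D3:**
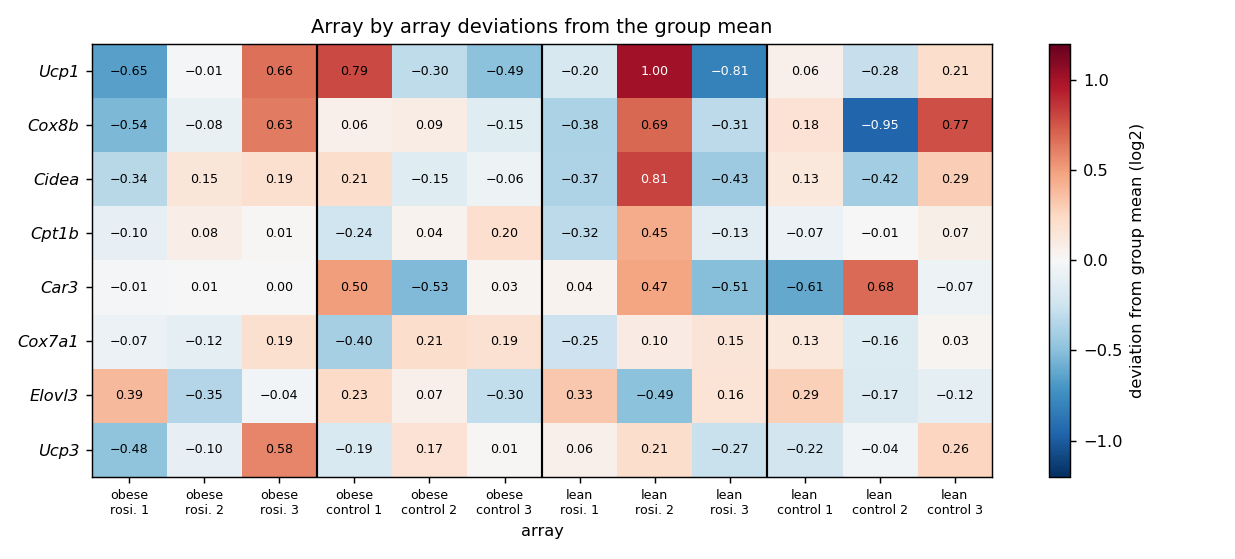
Deviation of log2(signal + 16) from the group mean for each gene (rows) on each array (columns), with vertical lines between groups. Ucp1, Cox8b and Cidea share high values on lean rosiglitazone array 2 and obese rosiglitazone array 3, whereas Car3 departs from Cox8b on lean control array 2 (0.68 and −0.95).

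Over the 12 arrays, deviations of Cidea correlated with those of Ucp1 at r = 0.86, rank 18 among 18624 other kept probe sets, and those of Cox8b at r = 0.70, rank 283. Cox8b and Cidea correlated with each other at r = 0.85. Ucp3 had r = 0.54 with Ucp1, Car3 0.46 and Cpt1b 0.31, whereas Cox7a1 had −0.17 and Elovl3 −0.33. The dimmer probe sets of Ucp3 and Car3 had only 0.18 and 0.03, so the values of these genes depend on the probe set. Over all kept probe sets the 95th percentile of r was 0.58 and the 99th 0.73. These values describe arrays that share scaling, dissection and labelling, and no p is given. On the 3 obese control arrays the deviations of Ucp1 are those of signals under the bacterial controls. Leaving out 1 array at a time moved Cidea between 0.75 and 0.89, Cox8b between 0.58 and 0.81, and Ucp3 between 0.36 and 0.79. The other 4 genes depended on single arrays. Without obese control array 1, Cox7a1 had 0.35, Car3 0.30 and Cpt1b 0.70, and without lean rosiglitazone array 2, Cpt1b had −0.50, Car3 0.27, Elovl3 0.12 and Cox7a1 −0.38. Car3 reached 0.73 without lean control array 2. Over the 9 arrays without the obese control group, a choice made after seeing the data, r was 0.90 for Cidea, 0.79 for Cox8b and Ucp3, 0.73 for Cpt1b, 0.35 for Cox7a1, 0.34 for Car3 and −0.64 for Elovl3.

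**Figure D4:**
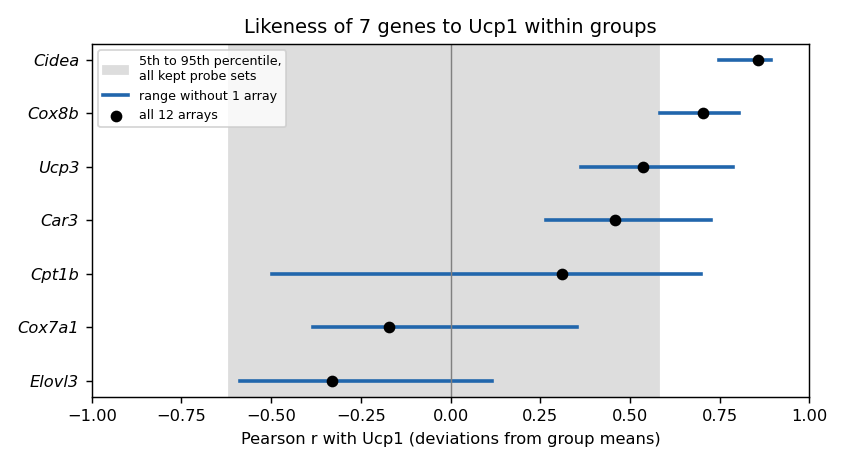
Pearson correlation with Ucp1 of the deviations from group means of the other 7 genes (points), with the range over the fits that each leave out 1 array (lines). The grey band spans the 5th to 95th percentile of all kept probe sets, and Cidea (0.86) and Cox8b (0.70) lie outside it.

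The 10 named genes most like Ucp1 by this measure were Tmem223 (r = 0.93), Tbc1d8b (0.92), Rabac1, Phf5a, Ndufb11, Ndufv2, Kif16b, Mrps22, Cyp2d4 and Smc2 (0.88). Of these, Ndufb11 and Ndufv2 encode subunits of respiratory complex I and Mrps22 a subunit of the mitochondrial ribosome. Their group means differed far less than those of Ucp1. Ndufv2 averaged 6322 in obese rats on rosiglitazone, 6604 in obese rats on control diet, 7953 in lean rats on rosiglitazone and 7544 in lean rats on control diet. The 10 did not share a direction between body types. Smc2 ran opposite to Ucp1, at 303 and 335 in obese rats on rosiglitazone and control diet, against 171 and 196 in lean rats.

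Transcription factors and coactivators of the brown fat programme were next compared, by limma with Benjamini-Hochberg adjustment over all 18625 kept probe sets, at an adjusted p under 0.05. With the brightest probe set for each gene, 0 of 21 measured regulators (14 kept by the filter) passed in any of the 5 comparisons. By the same test 4.74% of all probe sets passed between body types on control diet, 5% on rosiglitazone, 0.00537% for the drug in lean rats, 0.0698% for it in obese rats and 0 for the difference between drug effects, where 802 had an unadjusted p under 0.05. Ppargc1a, the coactivator of mitochondrial biogenesis, averaged 1641 ± 90.6 in obese rats on rosiglitazone, 1507 ± 41.8 in obese rats on control diet, 1539 ± 238 in lean rats on rosiglitazone and 1598 ± 82.3 in lean rats on control diet. Esrrg, a nuclear receptor of oxidative tissues, differed by 0.12 between body types on control diet (adjusted p = 0.523), and Ppargc1b by −0.33 (adjusted p = 0.324). Thrb, a thyroid hormone receptor, differed by −0.21 at its brightest probe set (adjusted p = 0.364), while a pair of its dimmer probe sets fell by 0.64 (adjusted p = 0.0293) and 0.40 (adjusted p = 0.0331) on control diet.

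Among 18 other measured effector genes of brown fat, 2 were called lower between body types on control diet and 3 on rosiglitazone, 0 were called higher, and 0 were called for the drug. Between body types 4.74% of all kept probe sets were called on control diet and 5% on rosiglitazone, in either direction. Slc36a2, an amino acid transporter that marks brown fat and is also made in the kidney tubule, had signals of 131, 131 and 175 in obese rats on rosiglitazone, against 297, 290 and 281 in lean rats on rosiglitazone. It was lower in obese rats on the drug without overlap (log2 difference −0.93, adjusted p = 0.0391), and its drug effect in lean rats was 0.93 (adjusted p = 0.709). The other called genes are also expressed in tissues other than fat: Atp2a2, a calcium pump, fell by 0.44 on control diet (adjusted p = 0.0146) and by 0.36 on rosiglitazone (adjusted p = 0.0368), Slc27a2, a fatty acid transporter, fell by 0.53 on rosiglitazone (adjusted p = 0.0176), and Aspg fell by 1.08 on control diet (adjusted p = 0.0101). The call of Slc36a2 did not pass in 11 of 21 alternative settings, with adjusted p between 0.0119 and 0.128.

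The related genes of each family were compared in the same way. Of 24 measured paralogues, 2 were called higher and 1 lower in obese rats on control diet, and 2 higher and 3 lower on rosiglitazone, and 0 were called for the drug. The shares of all kept probe sets called between body types were 4.74% on control diet and 5% on rosiglitazone. Ucp2, the widely expressed uncoupling protein, ran opposite to Ucp1 between body types. It had signals of 1371, 1603 and 1361 in obese rats on rosiglitazone, 1714, 1604 and 1666 in obese rats on control diet, 947, 926 and 974 in lean rats on rosiglitazone, and 871, 1311 and 1305 in lean rats on control diet. The log2 difference of Ucp2 was 0.53 on control diet (adjusted p = 0.0397) and 0.59 on rosiglitazone (adjusted p = 0.0230), with no overlap on either diet. The Ucp2 call was lost in 12 of 22 alternatives on control diet (adjusted p up to 0.419) and in 7 of 21 on rosiglitazone (up to 0.0938). Slc25a30, a kidney mitochondrial carrier related to the uncoupling proteins, fell by 0.66 on control diet (adjusted p = 0.00111) and by 0.56 on rosiglitazone (adjusted p = 0.00344).

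Cox8a, the general form of subunit 8, differed by −0.19 between body types on control diet (adjusted p = 0.340), against −2.98 for Cox8b. Cpt1a, the general form of carnitine palmitoyltransferase, differed by −0.15 for the drug in lean rats (adjusted p = 0.981), against 0.68 for Cpt1b. Car2, the main carbonic anhydrase of the kidney, differed by 0.24 for the drug in lean rats (adjusted p = 0.981), against 2.14 for Car3. Of the other carbonic anhydrases Car8 was higher in obese rats by 0.57 (adjusted p = 0.0251) on control diet and by 0.58 (adjusted p = 0.0228) on rosiglitazone. The elongases Elovl5 and Elovl1 fell by 0.48 (adjusted p = 0.0136) and 0.31 (adjusted p = 0.0309) in obese rats on rosiglitazone. These calls were lost in 5 of 21 and 11 of 21 alternatives, and a dimmer probe set of Elovl5 differed by −0.33 (limma adjusted p = 0.32). Of 13 other measured subunits of cytochrome c oxidase, 11 were kept by the filter, 0 of these were called in any comparison, and the median differences over the 13 ranged from −0.20 to 0.04. Cox6a2, the heart and muscle form of subunit 6a, was dropped by the filter and not tested. Its signal was 52.9, 68.7 and 73.1 in obese rats on rosiglitazone and 85.3, 31.1 and 44.9 in obese rats on control diet, and in lean rats it was 89.0, 121 and 108 on rosiglitazone and 33.3, 87.4 and 30.9 on control diet. As with Cox8b, the lean rosiglitazone arrays of Cox6a2 lay above those of lean controls (log2 difference 0.97, SE 0.37) and of obese rats on the drug (−0.59 for obese against lean), in both cases without overlap. However, lean rosiglitazone array 3 (108) lay under the highest bacterial control of its own array (115.7). So did lean control arrays 1 and 3 and obese control arrays 2 and 3. The size of the Cox6a2 differences is thus not settled, and Cox6a2 was named after its values were seen.

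Of 26 measured genes of fatty acid supply and oxidation, 1 was higher and 3 were lower in obese rats on either diet, against 4.74% of all kept probe sets called in either direction on control diet and 5% on rosiglitazone. For the drug 1 of the 26, Fabp4, was called in obese rats, against 0.0698% of kept probe sets, and 0 were called in lean rats. Acadm, the medium-chain acyl-CoA dehydrogenase, fell by 0.39 on control diet (adjusted p = 0.0317) and by 0.46 on rosiglitazone (adjusted p = 0.0135). Acadl, the long-chain enzyme, fell by 0.53 on rosiglitazone (adjusted p = 0.00293), and Slc25a20, the carnitine carrier, fell by 0.41 (adjusted p = 0.0484). Mgll, the monoglyceride lipase, fell by 0.57 on control diet (adjusted p = 0.0443). The Slc25a20 call was lost in 16 of 21 alternatives (adjusted p up to 0.337) and that of Mgll in 16 of 22 (up to 0.422). Lpl, lipoprotein lipase, was higher in obese rats by 0.75 on control diet (adjusted p = 0.0356) and by 0.71 on rosiglitazone (adjusted p = 0.0436), calls lost in 9 of 22 and 12 of 21 alternatives.

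Genes of fat cells in general moved with the brown fat genes in part. Of 23 measured, 1 was higher and 6 were lower in obese rats on control diet, 1 was higher and 4 were lower on rosiglitazone, 2 were higher on the drug in obese rats and 0 were called in lean rats. Of all kept probe sets 4.74% were called between body types on control diet, 5% on rosiglitazone and 0.0698% for the drug in obese rats. The list was written with earlier results of these data known. The summed signal of the 23 genes ranged from 28452 to 29276 in obese rats on rosiglitazone, from 20035 to 21365 in obese rats on control diet, from 30462 to 43227 in lean rats on rosiglitazone and from 24387 to 38443 in lean rats on control diet. Lpl, Fabp4, Aqp7 and Gpd1, the 4 genes of highest mean signal, weigh most in this sum. Of these, Lpl was higher in obese rats, and Aqp7 and Gpd1 are also genes of the kidney tubule. With that limit, the sum was lowest in obese control kidneys, as was Ucp1. In whole kidney RNA, fewer fat cells and less RNA of fat cell genes per cell cannot be told apart. The part that the amount of fat tissue in each sample has in the Ucp1 values was not tested.

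Fabp4, which carries fatty acids in fat cells and capillary endothelium, had signals of 4111, 2862 and 2776 in obese rats on rosiglitazone, 216, 502 and 492 in obese rats on control diet, 4343, 7256 and 3864 in lean rats on rosiglitazone, and 1068, 1065 and 2408 in lean rats on control diet. On the drug the obese and lean arrays overlapped in Fabp4 (log2 difference −0.63, adjusted p = 0.378), whereas Ucp1 differed by −4.19. On control diet Fabp4 fell by 1.85 in obese rats (adjusted p = 0.0142), and rosiglitazone raised it by 3.03 in obese rats (adjusted p = 0.0185), with 1.81 in lean rats (adjusted p = 0.293). The first call was lost without obese control array 1 (adjusted p = 0.0549), and the drug call in obese rats without any 1 of 5 arrays (adjusted p up to 0.107).

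Plin1, the perilipin that coats fat droplets, read 353, 299.9 and 492 in obese rats on rosiglitazone and 324, 278 and 381 in obese rats on control diet, against 799, 1696 and 1095 in lean rats on rosiglitazone and 528, 392 and 619 in lean rats on control diet. It fell by 1.57 in obese rats on rosiglitazone (adjusted p = 0.00367) and differed by −0.61 on control diet (adjusted p = 0.210). A dimmer probe set of Plin1 differed by −0.60 on rosiglitazone (adjusted p = 0.32) and by 0.03 on control diet (adjusted p = 0.971). Cfd, adipsin, fell by 1.87 in obese rats on control diet (adjusted p = 0.00508) and by 1.95 on rosiglitazone (adjusted p = 0.00375). Adipoq, the adiponectin gene, differed by −0.36 on control diet (adjusted p = 0.306) and −0.66 on rosiglitazone (adjusted p = 0.0511), a smaller difference than that of Ucp1. Thrsp fell by 2.65 and Fasn, fatty acid synthase, by 1.69 in obese rats on control diet (adjusted p = 0.00293 and 0.00406). Fasn was higher on the drug in obese rats (1.66, adjusted p = 0.0486), a call lost in 15 of 21 alternatives (adjusted p up to 0.266). A dimmer probe set of Fasn gave 0.58 for the drug in obese rats (adjusted p = 0.999). Gpd1 and Aqp7 fell in obese rats on both diets by 0.58 to 0.73 and are also genes of the kidney tubule. The Gpd1 calls were lost in 8 of 22 alternatives on control diet and 8 of 21 on rosiglitazone. A dimmer probe set of Gpd1 differed by −0.46 on control diet (limma adjusted p = 0.223) and by −0.57 on rosiglitazone (limma adjusted p = 0.121).

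**Figure D5:**
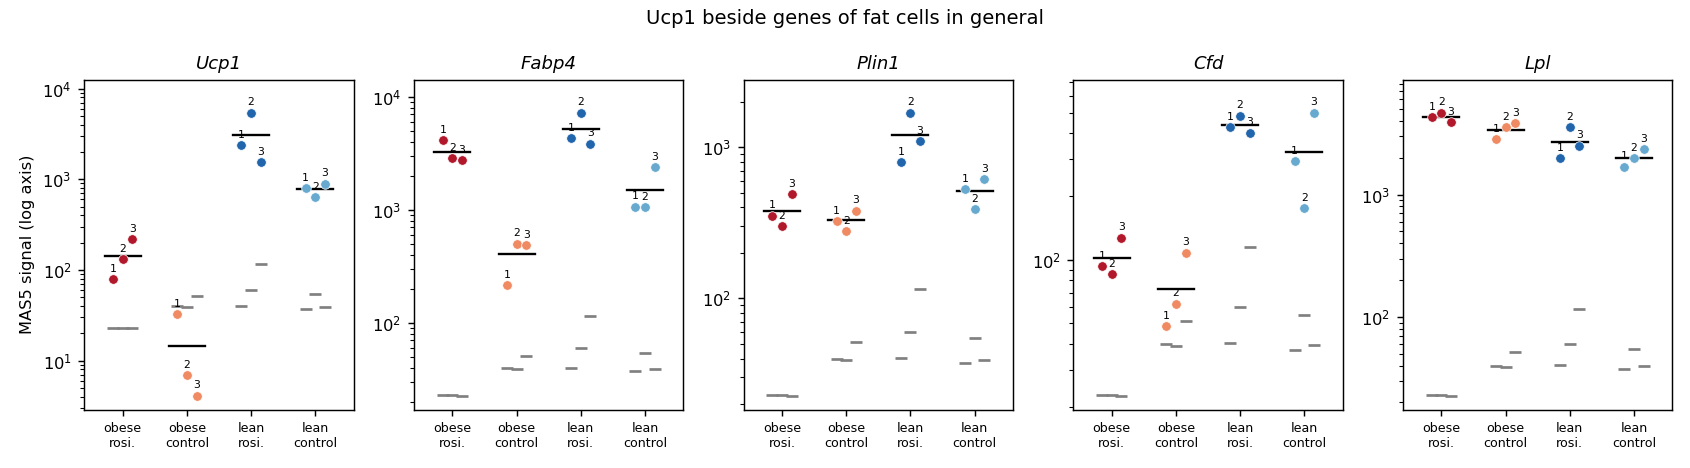
Signal of Ucp1 and of Fabp4, Plin1, Cfd and Lpl on each array, on log axes, with arrays numbered 1 to 3, group means as black lines and the highest bacterial control of each array as grey ticks. Fabp4 in obese rats on rosiglitazone (2776 to 4111) overlaps with lean rats on the drug (3864 to 7256), Ucp1 does not, and Lpl is higher in obese rats.

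Markers of other tissues that border the kidney or share genes with brown fat were examined next. Of 24 measured skeletal muscle genes, 8 were kept and 0 were called in any comparison. On every array 11 lay under 115.7, the highest bacterial control signal of any array. By the measure used above, 0 lay under the highest control of their own array on all arrays. Myh1 was an exception in level, at 11017 to 16376 in its brightest probe set, whose name marks it as open to cross-hybridisation. Other probe sets of Myh1 were bright in every group too, among them one whose name carries no such mark, with group means of 6970 in obese rats on rosiglitazone, 8829 in obese rats on control diet, 7085 in lean rats on rosiglitazone and 7546 in lean rats on control diet. What these probe sets measure in kidney is not settled here. With Myh1 the summed muscle signal ranged from 14415 to 16291 in obese rats on rosiglitazone, from 15392 to 18760 in obese rats on control diet, from 15663 to 17065 in lean rats on rosiglitazone and from 14560 to 19274 in lean rats on control diet. Without Myh1, a step chosen after its values were seen, the sum ranged from 2716 to 3734 in obese rats on rosiglitazone, from 2568 to 3641 in obese rats on control diet, from 2776 to 3962 in lean rats on rosiglitazone and from 2898 to 3543 in lean rats on control diet. All groups overlapped in both sums.

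The summed signal of 11 measured adrenal genes also ran lower in obese rats. It ranged from 1189 to 1682 in obese rats on rosiglitazone, against 1694 to 2019 in lean rats on rosiglitazone, without overlap. On control diet it ranged from 1330 to 1695 in obese rats, against 1693 to 2023 in lean rats, so the ranges met. For the drug 0 of these genes were called. Between body types 1 was called, against 4.74% of kept probe sets on control diet and 5% on rosiglitazone. That gene was Mrap, which is made in both adrenal cortex and fat cells, and it fell by 1.34 in obese rats on control diet (adjusted p = 0.000818) and by 1.01 on rosiglitazone (adjusted p = 0.00602). Without Mrap, a step chosen after its values were seen, the sum ranged from 829 to 1286 in obese rats and from 986 to 1094 in lean rats on rosiglitazone, and from 945 to 1375 in obese rats and from 964 to 1067 in lean rats on control diet, so the body types overlapped. Cyp11a1, the first enzyme of steroid synthesis, differed by 0.33 and −0.16 (adjusted p = 0.651 and 0.840). The part of adrenal tissue in the Ucp1 values was not tested.

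Of 10 measured endothelial genes, all kept by the filter, Eng alone was called, higher by 0.66 in obese rats on rosiglitazone (adjusted p = 0.0472), a call lost in 15 of 21 alternatives (adjusted p up to 0.17). In that comparison 5% of all kept probe sets were called. The summed endothelial signal was highest in obese rats on the drug, at 10523 to 11062, against 6382 to 10374 in obese rats on control diet, 7904 to 8503 in lean rats on rosiglitazone and 8101 to 8976 in lean rats on control diet. The fitted difference was above 0 for 10 of the 10 genes for the drug in obese rats (median 0.35) and for 9 of 10 for obese against lean rats on the drug (median 0.42), where the medians over all kept probe sets were −0.00 and 0.02. Fabp4, which capillary endothelium also makes, was higher on the drug in obese rats as given above, and the part of endothelium in that difference was not tested.

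The defining kidney genes were bright on all arrays, with Umod of the thick ascending limb at 16369 to 23092 and Aqp2 of the collecting duct at 9920 to 13230, the markers of the labelled tissue. Of 13 measured kidney genes, 2 were called lower in obese rats on control diet and 4 on rosiglitazone, and 0 were called higher or for the drug. Over all kept probe sets 4.74% were called between body types on control diet and 5% on rosiglitazone, in either direction. Aqp1 of the proximal tubule fell by 0.46 on control diet (adjusted p = 0.0154) and by 0.43 on rosiglitazone (adjusted p = 0.0227), and Cubn fell by 0.47 and 0.52 (adjusted p = 0.0105 and 0.00606). These differences are small beside those of Ucp1, Cox8b and Cidea, and their part in them was not tested.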

How the data were processed

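Kidney RNA of 12 rats was extracted with Trizol and labelled with an Enzo kit, per the labels. The authors deposited 1 linear signal intensity per probe set and array, made with MAS5 per the submitters' processing notes. For the scaling target and scanner settings the sources used here say nothing. With 2% of probe sets trimmed at each end, the 12 array means were 500.12 to 500.15, so the intensity values were used as deposited by the authors. The median signal was 204 to 239 per array. Precision is limited by how few arrays each group has.

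Of 31099 probe sets, 57 Affymetrix controls were left out. In the rest, 20826 had 1 gene symbol, 436 several and 9780 none here. Signals were turned to log2 after adding 16. Probe sets with a mean below the 40th percentile (7.32) were dropped, leaving 18625. All arrays entered 1 limma fit (limma 3.58.1, statmod 1.5.0, R 4.3.3) with 4 group means, 8 residual degrees of freedom and eBayes with trend and robust settings, with Benjamini-Hochberg adjustment within each of 5 comparisons. Values of the 8 genes come from the same fit with no filter. The procedure was tested on simulated data.

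The 8 genes, the 10 gene lists and the naming rule were chosen with earlier results of these data known. The brightest probe set stands for a gene. From each list, the 4 genes of highest mean signal and, in each comparison, up to 6 called genes of smallest p could be named, as could the 10 genes most like Ucp1. A few other list genes are named for comparison and were chosen after their values were seen: Adipoq, Cox6a2 and the dimmer probe sets of Thrb, Myh1, Plin1, Fasn, Gpd1 and Elovl5. Each array is 1 rat. Replicate numbers are not said to pair the samples, so the main fit held no pairing. Between groups, deviations of same-numbered arrays correlated at −0.18 to 0.18, with a median of 0.07. Those of other-numbered arrays correlated at −0.22 to 0.21, with a median of −0.02. These values cannot settle whether rats were paired. The alternatives tried were other offsets, no filter, quantile normalization, median centring, plain eBayes, the spike-in class as a covariate or alone, a replicate block and each array left out. Sequences come from RefSeq's GRCr8 promoter table.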

Additional observations from a re-analysis of the deposited data

Results flagged for a closer look

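Among the 8 brown fat genes and the genes of the 10 lists, 2 differed between body types in opposite directions on the 2 diets. For both, every obese array lay on one side of every lean array on each diet. The share of all kept probe sets with this pattern was not counted, so nothing is read from the number. Fasn was higher in obese rats on rosiglitazone (2577, 2067 and 2055, against 1230.1, 1829 and 1470 in lean rats) and lower in obese rats on control diet (822, 573 and 698, against 2266, 1416 and 3578 in lean rats). The difference in its drug effect, obese minus lean, was 2.26 on the log2 scale (limma adjusted p = 0.235), which did not pass. A dimmer probe set of Fasn differed by only 0.16 between body types on rosiglitazone (limma adjusted p = 0.823). On control diet that probe set differed by −1.12 (limma adjusted p = 0.041), and its difference between drug effects was 1.28. Slc25a20 was lower in obese rats on rosiglitazone (704, 861 and 816, against 1042, 1158 and 974 in lean rats) and higher on control diet (1011, 1000.3 and 1048, against 976, 956 and 826 in lean rats). Its difference was −0.56 (limma adjusted p = 0.987), which did not pass either. None of the 8 brown fat genes showed this pattern.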

How the results depend on the processing

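The differences of Ucp1, Cox8b and Cidea between body types kept their sign under every alternative run, at −6.12 to −3.38, −4.66 to −2.14 and −2.24 to −0.73. Of 41 calls of list genes, 3 passed in every alternative (Cfd, Plin1 and Mrap on rosiglitazone) and 38 were lost in at least 1, of which 26 were lost when some 1 array was left out. The alternatives did not include another probe set of a gene, and a dimmer probe set of Plin1 was not called. Counts moved more. For obese against lean on control diet, 882 probe sets were called, with 516 under median centring, 548 with plain eBayes, 165 in the lower and 56 in the higher spike-in class alone. On rosiglitazone 932 were called, with 493, 589 and 507 under median centring, plain eBayes and the lower class. For the drug in lean rats 1 was called, with 2 under quantile normalization, 3 under median centring, 4 with the class as a covariate, 24 in the lower and 0 in the higher class. For the drug in obese rats 13 were called, with 7 without the filter, 21 under quantile normalization, 2 with plain eBayes and 34 with the covariate. For the difference between drug effects 0 were called, with 1 under quantile normalization, 3 with the covariate and 6 in the lower class. Fits within a class used fewer arrays, and the causes of these changes were not tested.

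With the replicate number as a block, though it is not said to pair these samples, the counts were 961, 1002, 2, 10 and 0 in the same order. Leaving out 1 array at a time gave 327 to 1010, 469 to 1039, 1 to 5, 0 to 18 and 0 to 4. The control diet count fell most without obese control 2 (327), obese control 3 (337) and lean control 1 (389), and lean control 2 (535) and obese control 1 (547) also moved it by over 1.5 times. The rosiglitazone count fell to 482, 469 and 519 without obese rosiglitazone 1, 2 and 3 and to 535 without lean rosiglitazone 1. In obese rats the drug count was 0 without obese rosiglitazone 1 or obese control 2, 1 without obese rosiglitazone 3, 2 without obese control 3, 4 without obese control 1 and 7 without lean rosiglitazone 1. The count of 5 in lean rats and of 4 for the difference between drug effects came without lean control 2.

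The median drug effect of the 8 genes in lean rats, 1.08, was 0.61 in the lower class. The number of the 8 without overlap, 3 on control diet, was 7 in the lower and 5 in the higher class, and 5 without obese control 1. For the drug it was 8 in the lower class in lean rats, and in obese rats 3 in the lower class, 4 without obese rosiglitazone 1, 3 without obese control 1 and 2 without obese control 2 or 3. In the lower class each lean group held 1 array, so overlap between them was not possible and their count of 8 carries no information. Other groups within a class hold fewer arrays too, which makes overlap less likely. Over all arrays left out, these counts ranged from 3 to 5 and 5 to 6 between body types and from 5 to 6 and 1 to 4 for the drug. The medians ranged from −0.57 to −0.36, −1.40 to −0.93, 0.76 to 1.25, 0.23 to 0.44 and −0.53 to −0.23, and the median likeness to Ucp1 from 0.27 to 0.70. Without the obese control arrays, chosen after seeing the data, that likeness was 0.73. Signals of Ucp1 and Cox8b in obese control rats are at the level of the bacterial controls, so their size there is only a bound: Ucp1 differed by −6.12 with an offset of 1 and −3.42 with 64.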
